A study of Mus musculus with 31 samples.

Results

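A set of 10 genes of the brain's blood vessels was followed through the hypothalamus of adult mice whose mothers ate an obesogenic or a control diet. Adamts1 was taken because it was a leading gene of the averaged effect of maternal diet in these same data. The other 9 members, Cldn5, Slc2a1, Mfsd2a, Flt1, Kdr, Pecam1, Cdh5, Abcb1a and Tek, were taken as genes of endothelial cells and of the blood-brain barrier. All 10 were in the deposited table of 54532 genes, and all 10 were among the 18743 genes that passed the filter on low counts. Hypothalamus of 4-month-old C57BL/6J mice, an inbred strain, gave 31 RNA libraries. Female offspring of dams fed the obesogenic diet, high in fat and sugar, gave 7 libraries, and female offspring of control dams gave 8. Male offspring of obesogenic dams gave 8 libraries and male offspring of control dams gave 8. Dams ate their diet through pregnancy and lactation, the offspring were weaned to chow at day 21, and all offspring, those of control dams too, were themselves given obesogenic food for 4 weeks, starting at 3 months. The groups therefore differed in the diet of the dam, on top of a challenge diet that all of them shared. Obesogenic and control below refer to the dam.

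Endothelial cells line the vessels, and in most of the brain they form the blood-brain barrier, by sealing the gaps between cells, by suppressing vesicle traffic across the cell and by pumping compounds back to the blood. Claudin-5 (Cldn5) seals the tight junctions, GLUT1 (Slc2a1) carries glucose inward, MFSD2A carries lipids with docosahexaenoic acid and holds back transcytosis, and P-glycoprotein (Abcb1a) is an efflux pump. VEGF acts through its receptors Flt1 and Kdr, angiopoietins act through Tek, and Pecam1 and Cdh5 (VE-cadherin) join neighbouring endothelial cells. Adamts1 is a secreted protease that cuts proteoglycans of the extracellular matrix such as versican, and is known to restrain VEGF signalling. The hypothalamus also holds vessels without a tight barrier, in the median eminence.

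The promoters of 5 members are shown because the results turn on these genes: Adamts1, chosen on the diet contrast, Flt1 and Tek, which covaried over all 31 libraries, Cldn5, whose covariation with both depended on the libraries used, and Mfsd2a, whose values fell into separate ranges. RefSeq promoters (build GRCm38.p6) were at hand for 8 of the 10 members. Each sequence is the 250 bases before the RefSeq start of the gene, 5′ to 3′ on the strand of the gene. Adamts1 lies at chr16:85803114-85803363, minus strand, Flt1 at chr5:147726012-147726261, minus strand, Tek at chr4:94739039-94739288, plus strand, Cldn5 at chr16:18776597-18776846, plus strand, and Mfsd2a at chr4:122961189-122961438, minus strand. Capitals mark matches, on either strand, to any of 9 short motifs: GGAAG of ETS factors, TGTTT of forkhead factors, ACAAT of SOX factors, GGGCGG of Sp1 and KLF factors, TATAAA of the box of that name, TGANTCA of the factor AP-1, TGACGTC of the factor CREB, CACGTG of the E-box that clock proteins bind, and AGAACA, part of the binding site of the glucocorticoid receptor.
Adamts1: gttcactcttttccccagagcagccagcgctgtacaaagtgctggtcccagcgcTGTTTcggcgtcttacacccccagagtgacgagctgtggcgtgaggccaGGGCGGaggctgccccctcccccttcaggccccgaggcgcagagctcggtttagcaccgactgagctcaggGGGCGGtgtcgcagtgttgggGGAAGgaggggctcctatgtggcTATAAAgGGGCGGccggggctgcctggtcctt
Flt1: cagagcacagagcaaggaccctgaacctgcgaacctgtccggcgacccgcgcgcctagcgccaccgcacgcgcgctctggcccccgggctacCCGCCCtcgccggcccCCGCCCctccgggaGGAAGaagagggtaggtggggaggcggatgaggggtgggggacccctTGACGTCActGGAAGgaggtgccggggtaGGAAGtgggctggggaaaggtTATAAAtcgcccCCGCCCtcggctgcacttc
Tek: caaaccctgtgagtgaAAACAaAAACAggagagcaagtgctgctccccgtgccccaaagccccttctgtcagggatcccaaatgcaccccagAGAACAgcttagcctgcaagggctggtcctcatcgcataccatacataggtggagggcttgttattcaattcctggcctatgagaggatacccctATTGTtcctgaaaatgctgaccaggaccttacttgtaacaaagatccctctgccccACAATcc
Cldn5: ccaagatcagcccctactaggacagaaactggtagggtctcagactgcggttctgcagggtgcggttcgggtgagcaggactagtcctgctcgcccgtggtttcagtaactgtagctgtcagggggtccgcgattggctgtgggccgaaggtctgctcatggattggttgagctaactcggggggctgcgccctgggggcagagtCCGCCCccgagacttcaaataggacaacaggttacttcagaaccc
Mfsd2a: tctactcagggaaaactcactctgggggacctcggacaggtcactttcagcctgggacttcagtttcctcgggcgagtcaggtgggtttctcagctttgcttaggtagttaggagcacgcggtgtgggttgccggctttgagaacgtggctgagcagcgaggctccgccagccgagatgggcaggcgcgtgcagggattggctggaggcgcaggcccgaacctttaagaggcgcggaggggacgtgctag

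The Adamts1 promoter held GGGCGG in 3 places, TATAAA once, 32 bases before the start, GGAAG once and TGTTT once. Flt1, the receptor that binds VEGF without strong signalling, also had TATAAA, 31 bases before its start, with 3 matches each to GGAAG and GGGCGG and a palindromic CREB site that matched on both strands. Tek held 2 matches to TGTTT, 2 to ACAAT and 1 to AGAACA. Cldn5 held a single GGGCGG, and none of the 9 motifs was in the window of Mfsd2a, which says only that these letters are absent there. Among the 32851 promoters of the same length in the RefSeq table, 64.1% held GGAAG, 46.4% TGTTT, 27.7% ACAAT, 32.7% GGGCGG, 12.4% TATAAA, 16.1% AGAACA, 6.75% TGANTCA, 6.02% CACGTG and 2.78% TGACGTC. None of the 8 member promoters held TGANTCA or CACGTG. These matches describe the sequence and were not tied to binding.

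Libraries held 23118626 to 38547288 counted read pairs, so that 1 pair was worth 0.0259 to 0.0433 CPM (counts scaled to a common library size, the usual CPM unit). Each member had at least 160 pairs in each library. Which animal or litter a library came from is not labelled, so the p-values rest on library-to-library spread, part of which may be technical. The diet was given to dams, and the spread between dams or litters could not be measured. If libraries share a litter, the p-values for maternal diet could be too small. A total of 7 libraries were in doubt. The library labelled control female 7 had 138.8 CPM of Y-linked genes and the library labelled control male 7 had 575.5 CPM of Xist, so 2 libraries went against their sex labels. A further 5 stood apart, with median correlations to the others of 0.931 to 0.982 against 0.985 to 0.989 in the rest. These were obesogenic female 3, control females 5 and 8, and control males 4 and 6. Results were also computed on the remaining 24 libraries, which are 6 obesogenic females, 5 control females, 8 obesogenic males and 5 control males. Of the defining neuropeptide genes of the hypothalamus, Pmch was at 450.3 CPM or more, Hcrt at 18.6 or more and Pomc at 55.6 or more in the 24 libraries not in doubt. Control female 5 had 0.027 CPM of Pmch, 0.108 of Hcrt and 2.78 of Pomc, and a sum of 3.24 CPM over 10 hypothalamic markers, while the lowest sum in the other 3 groups was 894.2 CPM.

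Levels of different genes were compared per length, as CPM per kilobase of exon (RPKM), averaged over all 31 libraries. Slc2a1 was the most abundant at 41.2 ± 6.84 RPKM (SD, n = 31) and lay above the next gene in all 31 libraries. Mfsd2a followed at 18.8 ± 6.31 and Cldn5 at 17.7 ± 6.17 RPKM. These neighbours were not separated beyond their spread, since Mfsd2a was the higher in 17 of 31 libraries. Abcb1a, at 6.73 ± 1.79 RPKM, exceeded Flt1, at 4.84 ± 0.836 RPKM, in 29 libraries, and Flt1 exceeded Pecam1, at 3.46 ± 0.498 RPKM, in 29. Tek and Cdh5 were again level with each other, at 3.00 ± 0.862 and 2.90 ± 0.530 RPKM, with Tek the higher in 18 of 31. Adamts1 came ninth at 1.85 ± 0.382 RPKM, below Cdh5 in 30 libraries and above Kdr, at 1.31 ± 0.297 RPKM, in 29. Its level per length thus stood between those of the adhesion gene Cdh5 and the receptor gene Kdr. Genes also differed in how far they ranged between libraries: Cldn5 spanned 3.70-fold from its lowest to its highest library, Tek 3.33-fold and Mfsd2a 3.04-fold, while Pecam1 spanned 1.62-fold and Slc2a1 1.93-fold. The highest Cldn5 and the lowest Tek were both in control male 6, which stood apart from the other libraries. Without the libraries in doubt Cldn5 ran from 14.7 to 38.25 CPM and Tek from 9.57 to 21.25 CPM.

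Adamts1 (ENSMUSG00000022893, chromosome 16, 85793827 to 85803113, minus strand, GRCm38) was higher in the offspring of obesogenic dams in both sexes. Because these values chose the gene, they are given as a description with no test. Levels within a gene are CPM scaled with TMM factors, and since the RNA is of bulk tissue, fewer cells of a type and less RNA per cell cannot be told apart. In obesogenic females Adamts1 lay between 8.79 and 14.05 CPM with a median of 11.9, against 6.98 to 11.6 with a median of 8.18 CPM in control females. All 7 obesogenic females were above the control mean and 4 of 7 above the highest control, while 5 of 8 controls lay below the lowest obesogenic female, so the groups overlapped. Obesogenic males ranged over 7.77 to 13.5 CPM with a median of 10.53, against 6.38 to 10.4 with a median of 8.69 CPM in control males. Here 6 of 8 obesogenic males were above the control mean and 4 of 8 above the highest control. Means were 11.7 ± 1.70 CPM in obesogenic females (SD, n = 7), 8.60 ± 1.59 CPM in control females (n = 8), 10.49 ± 1.88 CPM in obesogenic males and 8.68 ± 1.37 CPM in control males (n = 8 each). The log2 fold change was 0.44 ± 0.13 (SE) in females, 0.27 ± 0.13 in males and 0.36 ± 0.09 averaged over the sexes. Without the 7 libraries in doubt the averaged value was 0.40 ± 0.11, and it lay between 0.33 and 0.40 in all alternatives run. In the ordering of genes that led to its choice, the neighbours of Adamts1 were Gimap9, at a log2 fold change of 1.88, just before it, and Xist, at -6.05, and Ttc21b, at 0.27, just after it. The 2 libraries against their sex labels are both in control groups and enter the Xist value.

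**Figure D1:**
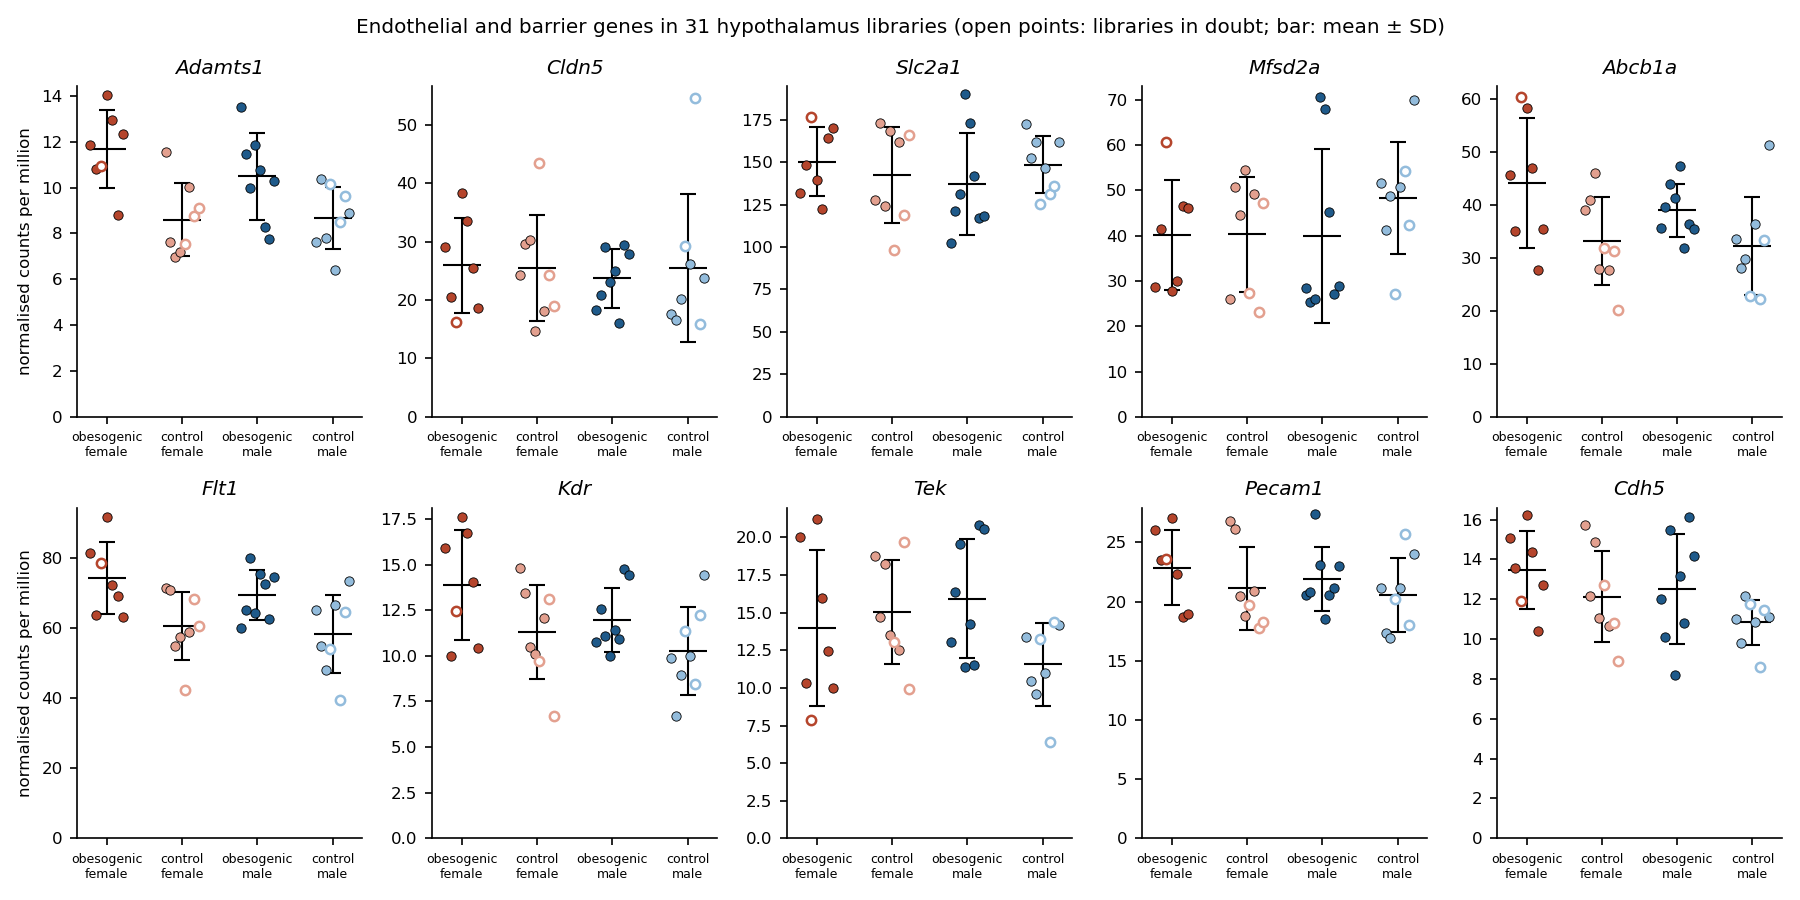
Normalised CPM of the 10 genes in each library, by group, obesogenic left of control within each sex; bars give the mean ± SD of all libraries of a group and open points are the 7 libraries in doubt. Adamts1 lies at 8.79 to 14.05 CPM in obesogenic females, against 6.98 to 11.6 CPM in control females; Mfsd2a leaves a gap between 29.97 and 41.2 CPM, and Cldn5 reaches 54.5 CPM in a single control male.

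None of the 9 members other than Adamts1 passed the test for maternal diet. In the averaged contrast, 0 of 9 members passed, where 0 of 18743 genes did (0%), by edgeR's quasi-likelihood test with Benjamini and Hochberg's adjustment over all genes. At an unadjusted p under 0.05 there were 3 of 9, Flt1, Kdr and Abcb1a, against 1918 genes or 10.2% of all. DESeq2 called 5 genes in this contrast and limma voom 0, and neither called any of the 9. Of the 9, 6 had a positive and 3 a negative log2 fold change, with a median of 0.18, beside a median of -0.01 and 47.5% positive over all genes tested. In females 0 of 9 passed and 2 had an unadjusted p under 0.05, against 8.12% of all genes, and in males 0 of 9 passed and 2 did, against 3.45%. Over all genes 0 passed in either sex by edgeR and by voom, and 6 in females and 1 in males by DESeq2, none of them among the 9. Those in females were Y-linked apart from Gm45716 and Mettl16, and the 1 in males was Xist. The count is small, and the members were chosen with results of these data known.

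Flt1 (ENSMUSG00000029648, chromosome 5, 147561604 to 147726011, minus strand), the decoy-like VEGF receptor, had the smallest p of the 9 members in the averaged contrast. It lay between 63.3 and 91.8 CPM in obesogenic females, with a median of 72.4, against 42.2 to 71.5 with a median of 59.7 CPM in control females. In obesogenic males it ranged over 60.01 to 79.9 CPM with a median of 69.0, against 39.5 to 73.4 with a median of 59.8 CPM in control males. Each of the 7 obesogenic females and 8 obesogenic males was above the control mean of its sex, but the ranges overlapped. The averaged log2 fold change was 0.27 ± 0.08 (95% interval 0.11 to 0.43, edgeR adjusted p = 0.464), and the lowest adjusted p over all alternatives was 0.284. The 2 lowest control values came from libraries in doubt, control female 5 at 42.2 and control male 6 at 39.5 CPM. Without the 7 libraries in doubt the difference was 0.20 ± 0.07.

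Kdr (ENSMUSG00000062960, chromosome 5, 75932827 to 75978458, minus strand), the main signalling receptor for VEGF, showed a similar size of difference with more spread. Its values were 9.995 to 17.6 CPM with a median of 14.1 in obesogenic females, against 6.72 to 14.8 with a median of 11.3 CPM in control females. Obesogenic males ranged over 10 to 14.75 CPM with a median of 11.25, against 6.73 to 14.5 with a median of 9.93 CPM in control males. The groups overlapped in both sexes, and the averaged log2 fold change was 0.26 ± 0.11 (edgeR adjusted p = 0.464). Tek (ENSMUSG00000006386, chromosome 4, 94739289 to 94874976, plus strand), the angiopoietin receptor, had estimates of opposite sign in the sexes, neither of which passed. It lay at 7.88 to 21.25 CPM with a median of 12.4 in obesogenic females, against 9.96 to 19.7 with a median of 14.1 CPM in control females. In obesogenic males it ranged over 11.4 to 20.8 CPM with a median of 15.3, against 6.38 to 14.4 with a median of 12.1 CPM in control males, and 4 of 8 obesogenic males exceeded every control male. The log2 fold change was -0.10 ± 0.20 in females (edgeR adjusted p = 0.898) and 0.46 ± 0.19 in males (adjusted p = 0.940). The difference of these effects, females minus males, was -0.57 ± 0.28 (95% interval -1.13 to -0.0049, unadjusted p = 0.0482, edgeR adjusted p = 1.0). It did not pass, and it was -0.49 ± 0.27 without the libraries in doubt.

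Among the barrier genes, Abcb1a (ENSMUSG00000040584, chromosome 5, 8660077 to 8748575, plus strand), the efflux pump, whose close copy Abcb1b could share reads with it, had the largest averaged difference of the 9. It stood at 27.6 to 60.4 CPM with a median of 45.7 in obesogenic females, against 20.2 to 46.0 with a median of 31.6 CPM in control females. Obesogenic males lay at 31.9 to 47.4 CPM with a median of 38.0, against 22.3 to 51.4 with a median of 31.5 CPM in control males. Of the obesogenic libraries, 6 of 7 females and 7 of 8 males were above the control mean of their sex. The averaged log2 fold change was 0.35 ± 0.12 (edgeR adjusted p = 0.464) but 0.16 ± 0.12 without the 7 libraries in doubt (adjusted p = 0.935). Those libraries held the highest obesogenic value, 60.4 CPM in obesogenic female 3, and the lowest control values, 20.2 CPM in control female 8 and 22.3 CPM in control male 6.

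Cldn5 (ENSMUSG00000041378, chromosome 16, 18776847 to 18778262, plus strand), the tight junction claudin, did not differ beyond its spread, and its direction depended on few libraries. Obesogenic females ranged over 16.2 to 38.25 CPM with a median of 25.4, against 14.7 to 43.4 with a median of 24.3 CPM in control females. Obesogenic males ranged over 16.1 to 29.3 CPM with a median of 24.04, against 15.85 to 54.5 with a median of 21.99 CPM in control males. The averaged log2 fold change was -0.038 ± 0.16 (95% interval -0.37 to 0.30, edgeR adjusted p = 0.954) with all libraries and 0.21 ± 0.14 without the 7 in doubt (adjusted p = 0.935). The highest Cldn5 values, 54.5 CPM in control male 6 and 43.4 CPM in control female 5, were both in libraries that stood apart. Control male 6 also had the highest Hba-a1, at 181.4 CPM, a haemoglobin gene of red cells, and the highest Plvap, at 20.5 CPM, a marker of fenestrated endothelium. Their part in the Cldn5 value was not tested.

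Slc2a1 (ENSMUSG00000028645, chromosome 4, 119108711 to 119137983, plus strand), the glucose transporter, did not differ beyond its spread. It lay at 122 to 176.3 CPM with a median of 148 in obesogenic females, against 98.5 to 173 with a median of 145 CPM in control females. In obesogenic males it ranged over 103 to 190.2 CPM with a median of 126, against 125.3 to 172.5 with a median of 149 CPM in control males. The averaged log2 fold change was -0.019 ± 0.09 (95% interval -0.19 to 0.16, edgeR adjusted p = 0.957), and -0.13 ± 0.09 without the 7 libraries in doubt (adjusted p = 0.935). Mfsd2a (ENSMUSG00000028655, chromosome 4, 122946850 to 122961188, minus strand), the lipid carrier, had the widest interval of the transporters: obesogenic females lay at 27.8 to 60.7 CPM with a median of 41.4, against 23.2 to 54.4 with a median of 45.9 CPM in control females. Obesogenic males lay at 25.3 to 70.55 CPM with a median of 28.65, against 27.1 to 69.99 with a median of 49.8 CPM in control males. Its averaged log2 fold change was -0.14 ± 0.17 (edgeR adjusted p = 0.785), and -0.34 ± 0.20 without the libraries in doubt (adjusted p = 0.935). Its values fell into separate ranges, described further on, and 7 of 8 control males lay in the upper one.

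The adhesion genes Pecam1 (ENSMUSG00000020717, chromosome 11, 106654217 to 106750628, minus strand) and Cdh5 (ENSMUSG00000031871, chromosome 8, 104101625 to 104144511, plus strand) did not differ beyond their spread. Pecam1 ranged over 18.7 to 27.04 CPM in obesogenic females with a median of 23.5, against 17.8 to 26.8 CPM in control females with a median of 20.1. Males ranged over 18.5 to 27.4 CPM in the obesogenic group with a median of 21.01, against 16.96 to 25.7 CPM in the control group with a median of 20.7. Its averaged log2 fold change was 0.10 ± 0.08 (edgeR adjusted p = 0.623), and 0.066 ± 0.08 without the libraries in doubt. For Cdh5 the ranges were 10.4 to 16.2 CPM in obesogenic females with a median of 13.6, against 8.89 to 15.8 CPM in control females with a median of 11.6. Obesogenic males had 8.20 to 16.1 CPM with a median of 12.6, against 8.62 to 12.2 CPM with a median of 11.1 in control males. VE-cadherin exceeded every control male in 4 of 8 obesogenic males, while 1 obesogenic male was below every control male. The averaged log2 fold change of Cdh5 was 0.18 ± 0.09 (edgeR adjusted p = 0.501).

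**Figure D2:**
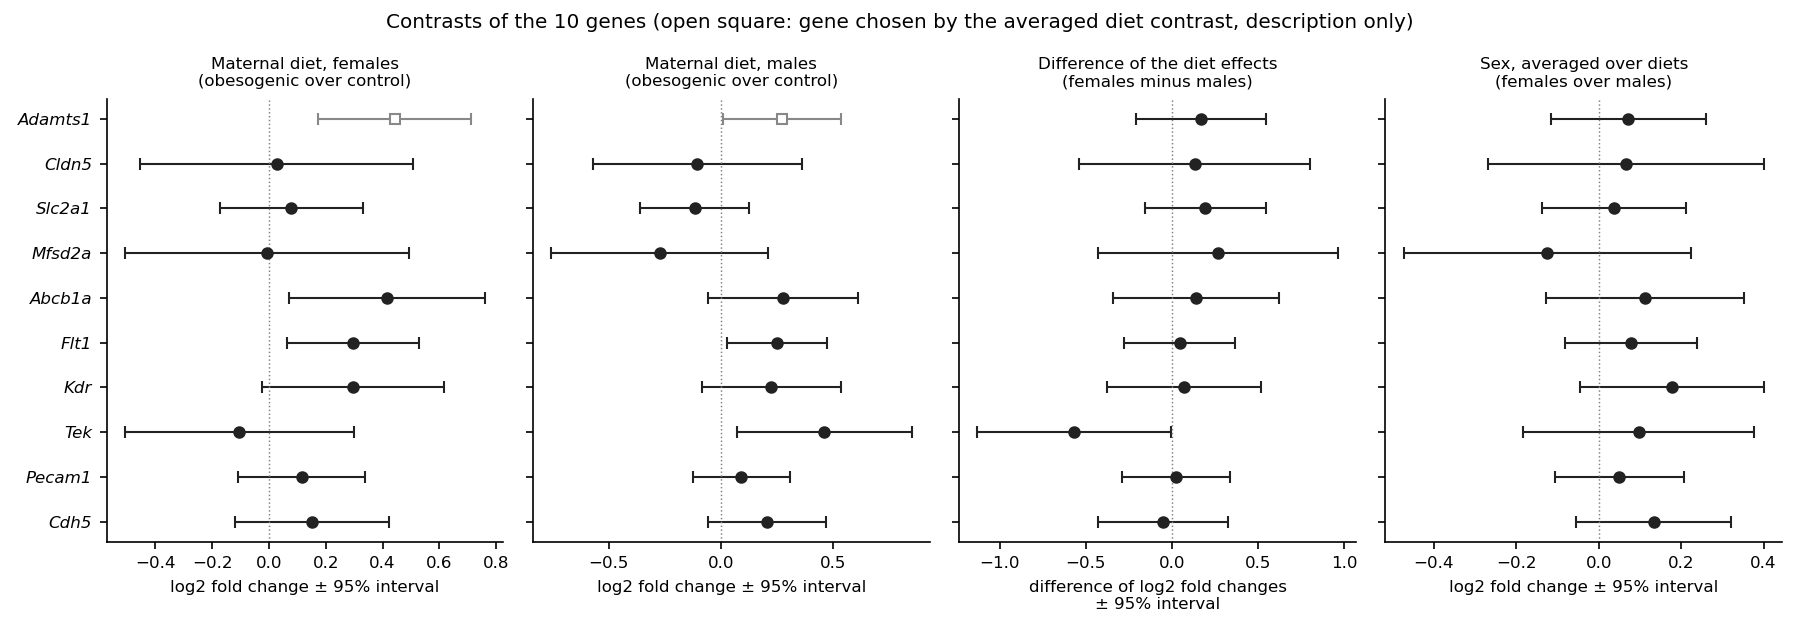
Log2 fold changes with 95% intervals of the 10 genes for maternal diet in females and in males, for the difference of these 2 effects, and for females over males. Open grey squares mark Adamts1 where its values chose it, and there its intervals take no account of that choice and are no test. The interval of Tek for the difference of effects runs from -1.13 to -0.0049, and all other intervals for that difference and for sex include 0.

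The interaction and the sex contrast were not used to pick Adamts1, so all 10 were read with their tests, though the members were chosen with earlier results of these data known. In the interaction 0 of 10 passed, with Tek alone at an unadjusted p under 0.05, against 679 genes or 3.62% of all. Over all genes 0 passed by edgeR, 0 by voom and 6 by DESeq2, none of them a member. Those 6 were Xist and Y-linked genes apart from Slc17a7. The diet effect on Adamts1 in females exceeded that in males by 0.17 ± 0.19 (95% interval -0.21 to 0.55, edgeR adjusted p = 1.0), which is within the error. Between the sexes, averaged over the diets, 0 of 10 members passed, where 5 genes did (0.0267%), and 0 of 10 had an unadjusted p under 0.05, against 4.13%. This contrast includes control female 7 and control male 7, which go against their sex labels: without them 13 genes passed, and 16 without all 7 libraries in doubt, with 0 of 10 members in both cases. Log2 fold changes, females over males, lay between -0.13 for Mfsd2a and 0.18 for Kdr, with edgeR adjusted p of 0.952 to 0.979. Without the 7 libraries in doubt they lay between -0.17 for Mfsd2a and 0.27 for Kdr, with an adjusted p of 0.999 for each. For Adamts1 the sex difference was 0.07 ± 0.09 (95% interval -0.12 to 0.26). The widest interval was that of Mfsd2a, from -0.47 to 0.22, so equal levels in the sexes were not shown.

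Related genes were counted in the averaged diet contrast to see whether their pathways moved with the members; by edgeR, 0 genes of any list passed. Of 31 other endothelial markers, 21 had a positive log2 fold change, with a median of 0.06. Icam2, an endothelial adhesion molecule, had 0.31 ± 0.13 (edgeR adjusted p = 0.464), the transporter Slco1c1 0.15 ± 0.09 and the phosphatase Ptprb 0.16 ± 0.11. Of 21 genes of VEGF and angiopoietin signalling 12 were positive with a median of 0.02, and those of smallest p were the co-receptor Nrp1 at 0.22 ± 0.11, the ligand Pgf at -0.29 ± 0.16 and the Notch target Hey2 at -0.27 ± 0.16. Wnt signalling, which maintains the barrier, had 11 of 20 positive with a median of 0.03; its target genes Axin2 and Lef1 had 0.20 ± 0.07 and 0.21 ± 0.10 (edgeR adjusted p = 0.464 and 0.466), and the ligand Ndp had -0.30 ± 0.14. Junction genes had 12 of 20 positive with a median of 0.03, led by Lsr at 0.17 ± 0.09, Cdh2 at 0.16 ± 0.09 and Tjp1 at 0.17 ± 0.12. Genes of other barrier transporters and of transcytosis had 13 of 24 positive with a median of 0.04, led by Abcc5 at 0.15 ± 0.06, Slc7a1 at 0.21 ± 0.10 and Slco1c1. Without the libraries in doubt several of these were smaller: Ptprb had 0.012, Nrp1 0.12, Pgf -0.12, Hey2 -0.10, Ndp -0.098, Cdh2 0.042, Tjp1 0.020, Abcc5 0.098 and Slc7a1 0.048, while Icam2 had 0.31, Axin2 0.20 and Lef1 0.23.

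Around Adamts1, 16 other ADAMTS proteases were tested and 11 were positive, with a median of 0.07; Adamts6 had 0.25 ± 0.15, Adamts4, a related cleaver of proteoglycans, 0.18 ± 0.12 and Adamts16 0.22 ± 0.18. Of 17 substrates and inhibitors 5 were positive with a median of -0.04, among them the proteoglycan Acan at -0.32 ± 0.17, Thbs1 at 0.25 ± 0.14 and Fbln1 at -0.27 ± 0.17. Without the libraries in doubt these were 0.14, 0.075 and 0.073 for the proteases, and -0.015, 0.13 and -0.25 for Acan, Thbs1 and Fbln1. Immediate early genes, induced within minutes of stimulation in many cell types, had 17 of 28 positive with a median of 0.10 with all libraries, and 25 of 28 with a median of 0.15 without those in doubt; Fos had 1.04 ± 0.33 (edgeR adjusted p = 0.464), Btg2 0.30 ± 0.12 and Dusp5 -0.97 ± 0.45. Dusp5 had -0.02 without the libraries in doubt. Glucocorticoid-induced genes had 5 of 18 positive with a median of -0.09, and 2 of 18 with a median of -0.22 without the libraries in doubt; Sult1a1 had -0.60 ± 0.22, Arrdc2 -0.27 ± 0.11 and Mt1 -0.30 ± 0.14.

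Markers of other cells were summed per library beside these results. The 31 endothelial markers apart from the members summed to 625.3 to 821.4 CPM in obesogenic females, against 633.9 to 757.2 CPM in control females, and to 607.2 to 801.7 CPM in obesogenic males, against 618.3 to 787.6 CPM in control males. Mural cell markers, of pericytes and smooth muscle, summed to 208.2 to 258.2 CPM in obesogenic females, against 191.8 to 300.9 CPM in control females, and to 161.4 to 264.7 CPM in obesogenic males, against 185.8 to 275.6 CPM in control males. Meningeal fibroblast markers were the list with the largest median, -0.43 with 0 of 14 positive, and -0.30 without the libraries in doubt. They summed to 66.7 to 172.9 CPM in obesogenic females, against 77.8 to 367.4 CPM in control females, and to 76.7 to 108.2 CPM in obesogenic males, against 63.1 to 224.9 CPM in control males. Col1a1, Dcn and Lum, which define that list, were at 0 in no library. Across libraries the relation of Adamts1 with that list did not pass (Pearson r = 0.042, Spearman rho = -0.019, permutation adjusted p = 0.93 for r, n = 31). Blood markers had 5 of 5 positive with a median of 0.19, mural markers 9 of 16 with 0.03, fenestrated endothelial markers 2 of 4 with -0.04 and choroid plexus markers 3 of 8 with -0.23. Astrocyte markers had 4 of 10 positive with a median of -0.06, microglia 3 of 10 with -0.07, oligodendrocytes 3 of 8 with -0.03, neurons 4 of 10 with -0.02 and hypothalamic markers 4 of 10 with -0.02. Without the libraries in doubt the blood median was 0.40, the astrocyte median -0.15, the mural median -0.03 and the choroid plexus median -0.15. The part of these cells in the values of the members was not tested. Against the mean log2 CPM of the 31 endothelial genes in the same library, Adamts1 stood at -0.26 ± 0.19 in obesogenic females (SD, n = 7), against -0.71 ± 0.25 in control females (n = 8), and at -0.47 ± 0.37 in obesogenic males, against -0.64 ± 0.29 in control males (n = 8 each). Set against the other endothelial genes, Adamts1 was on average higher in obesogenic offspring of both sexes, by less than 1 SD in males; this is again a description.

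Covariation asks a question that the choice of Adamts1 did not use: with the group means removed, which of these genes are high in the same libraries? Of the 45 pairs of members, 12 passed a permutation test of Pearson's r over 31 libraries, adjusted over the 45 pairs, and 13 by Spearman's rho. Over the 24 libraries not in doubt 22 passed. In both sets 9 pairs involve Mfsd2a, whose values fall into separate ranges, and these are read within ranges further on, leaving 10 of 36 pairs and, over 24 libraries, 19 of 36.

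A group of endothelial genes, Cldn5, Flt1, Kdr, Pecam1, Cdh5, Abcb1a and Tek, were high and low together. This set of 7 was formed after the values were seen. Over 31 libraries their 21 pairs had a median r of 0.423, with 20 positive and 9 passing. Over 24 libraries all 21 were positive, from 0.309 to 0.756, with a median of 0.601, and 17 passed. Kdr and Tek, both receptors of growth factors, had r = 0.735 and rho = 0.809 (permutation adjusted p = 3.0e-04 and 2.2e-04), and r = 0.760 without the 2 libraries farthest from the median of Kdr. Cdh5 and Tek had r = 0.688 and rho = 0.700 (permutation adjusted p = 3.0e-04 and 7.5e-04), and 0.644 without 2 libraries. Flt1 and Kdr, the VEGF receptors, had r = 0.536 and rho = 0.626 (permutation adjusted p = 0.029 and 0.0069), and 0.548 without 2 libraries. Leaving out the libraries in doubt changed the calls of several pairs, those of Cldn5 among them. Cldn5 with Flt1 was at -0.225 over 31 libraries (permutation adjusted p = 0.42) and at 0.517 over 24 (0.035), Cldn5 with Tek at 0.244 (0.33) and 0.723 (0.0035), and Cldn5 with Abcb1a at 0.103 (0.74) and 0.720 (0.0035). Pecam1 with Flt1 was at 0.317 (0.22) and 0.756 (0.0027). Other pairs passed over 31 libraries only: Kdr with Cdh5 was at 0.502 (0.026) and 0.407 (0.057), and Kdr with Abcb1a at 0.499 (0.046) and 0.53 (0.052). Counted by group, 21 of the 21 pairs were positive within obesogenic females, 19 in control females, 18 in obesogenic males and 13 in control males.

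Adamts1 passed with no other member. With the 8 members other than Mfsd2a its r lay between -0.128 and 0.139 over 31 libraries and between -0.138 and 0.242 over 24. Within groups the signs of r differed. Of the 8 pairs, 7 were positive within obesogenic females, 6 in control females, 2 in obesogenic males and 1 in control males. The difference between groups was not tested. Each sign rests on 7 or 8 libraries, and some r were near 0, such as -0.0089 with Kdr in control males. Over its 9 pairs the lowest permutation adjusted p was 0.29 over 31 libraries and 0.40 over 24. Against the mean of the 31 other endothelial genes it had r = -0.071 (permutation adjusted p = 0.87, adjusted over 190 relations of members with lists), while Pecam1 had 0.617 (0.012), Tek 0.572 (0.033), Cldn5 0.553 (0.019) and Flt1 0.50 (0.038). Adamts1 was not alone in this: Kdr at 0.48 (0.071), Cdh5 at 0.456 (0.13), Abcb1a at 0.32 (0.30) and Slc2a1 at -0.135 (0.76) did not pass either. Over 24 libraries Adamts1 had -0.125 (0.78), Flt1 0.766 (9.5e-04), Cldn5 0.737 (0.0076), Pecam1 0.700 (0.013), Tek 0.685 (0.013) and Abcb1a 0.592 (0.030), while Cdh5 at 0.557 (0.080), Kdr at 0.518 (0.078) and Slc2a1 at -0.157 (0.74) did not pass. Adamts1 had 191 to 480 read pairs in each library and Kdr 189 to 601. Of the relations of members with depth, 0 of 20, with the library total or the number of genes with reads, passed (lowest permutation adjusted p = 0.26 over 31 libraries, for Tek, and 0.90 over 24).

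**Figure D3:**
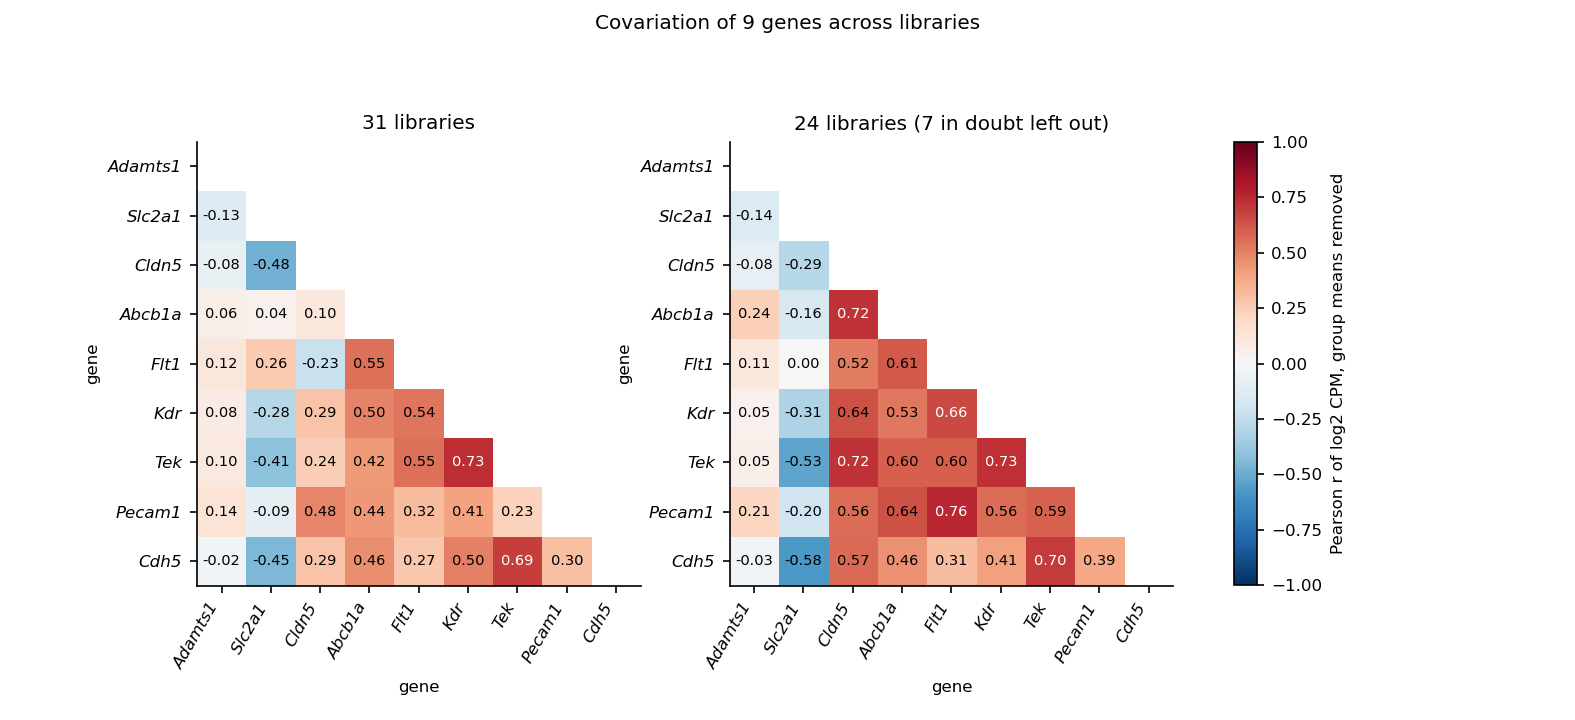
Pearson r of log2 CPM, with group means removed, for 9 genes over 31 libraries (left) and over the 24 libraries not in doubt (right); Mfsd2a is left out because its values fall in separate ranges. The block of 7 genes from Cldn5 to Cdh5, grouped after the values were seen, runs from -0.225 to 0.735 on the left and from 0.309 to 0.756 on the right. The Adamts1 column stays between -0.128 and 0.139 on the left and between -0.138 and 0.242 on the right.

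**Figure D4:**
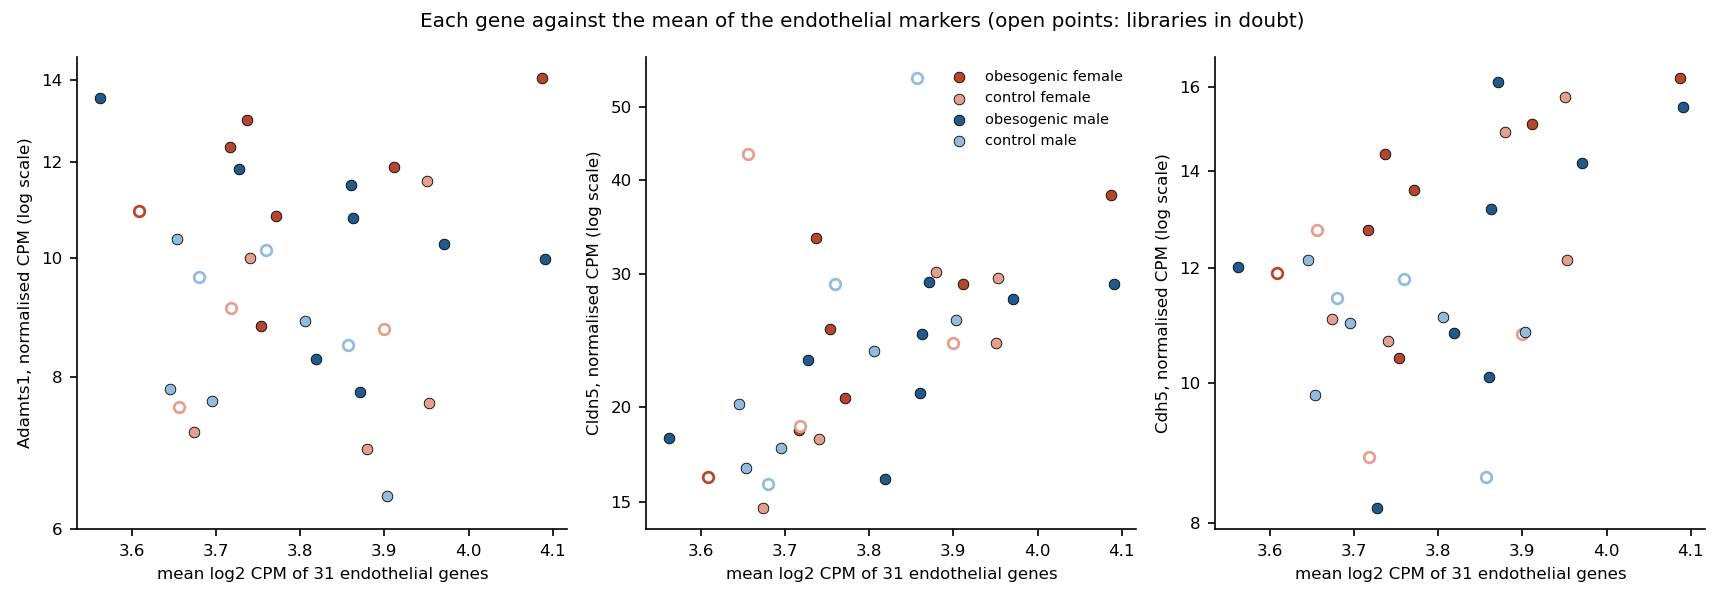
Normalised CPM (log scale) of Adamts1, Cldn5 and Cdh5 in each library against the mean log2 CPM of 31 other endothelial genes; open points are the 7 libraries in doubt. Adamts1 has r = -0.071 with group means removed, while Cldn5 rises with the endothelial mean (r = 0.553, and 0.737 without the libraries in doubt).

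Other relations of members with lists shifted with the libraries used. Over 31 libraries 15 of 190 passed and over 24 libraries 25 did. Cldn5 was tied to microglial markers at r = 0.627 (permutation adjusted p = 0.012) and to blood markers at 0.565 (0.034) over 31 libraries, and at 0.486 (0.11) and 0.464 (0.14) over 24. Over the same 24 libraries Abcb1a was tied to oligodendrocyte markers at 0.738 (0.0076), to blood markers at 0.658 (0.013) and to microglial markers at 0.623 (0.029), none of which passed over 31. Wnt signalling genes went with 4 members over 24 libraries: Abcb1a at 0.687 (0.016), Cldn5 at 0.673 (0.016), Tek at 0.639 (0.030) and Flt1 at 0.611 (0.037). Mural markers went, over 24 libraries, with Flt1 at 0.668 (0.013), Pecam1 at 0.634 (0.030) and Tek at 0.553 (0.037). Adamts1 passed with a single list, hypothalamic markers, at r = -0.647 and rho = -0.609 over 24 libraries (permutation adjusted p = 0.018 and 0.039), and -0.563 without the 2 libraries farthest from the median. Over all 31 that relation was 0.075 (0.93), and control female 5, low in those markers, is among the libraries left out. Its part in the change was not tested.

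Mfsd2a fell into 2 ranges of values with an empty gap between them. In 12 libraries it lay at 23.2 to 29.97 CPM and in 19 at 41.2 to 70.55 CPM. The lower range held 3 of 7 obesogenic females, 3 of 8 control females, 5 of 8 obesogenic males and 1 of 8 control males, so it was found in all 4 groups. Plin4, a lipid droplet protein induced by glucocorticoids, had a gap of its own between 7.86 and 18.3 CPM, and the same 12 libraries lay below it. Hr, a nuclear corepressor, was taken as one of the genes most like Mfsd2a in these libraries, so its values are a description. It had a gap from 51.7 to 67.5 CPM with the same 12 libraries below it. A wider gap, from 136.2 to 188.1 CPM, lay below its highest library, obesogenic female 3. Of the 9 libraries lowest in Fkbp5, the cochaperone that glucocorticoids induce, 9 were among the 12. Other glucocorticoid-induced genes matched less exactly. Map3k6 and Tsc22d3 each had 13 libraries below a gap, 12 of them shared with Mfsd2a. Hif3a had 12 below its gap with 11 shared, and Sgk1 had 13 with 10 shared. Because the values form 2 clusters, no r is given over all libraries together, and the clusters are not compared as groups. Inside the upper range, over 19 libraries, Mfsd2a rose with Plin4 (r = 0.825, rho = 0.826, permutation adjusted p = 0.0028 and 0.0020). Plin4 was tested as a gene of the glucocorticoid-induced list, which was chosen with earlier results of these data known. It was also the gene most like Mfsd2a over the 24 libraries not in doubt, ahead of Hr, so these p are no independent support. Hr, chosen for its likeness to Mfsd2a and so given with no p, had r = 0.762 and rho = 0.860 inside the upper range. Without the 2 libraries farthest from the median these r were 0.890 for Plin4 and 0.838 for Hr. With Fkbp5 it had r = 0.621 and rho = 0.663 (adjusted p = 0.066 and 0.038), with the cell cycle inhibitor gene Cdkn1a r = 0.593 and rho = 0.721 (0.072 and 0.015), and with Slc2a1 r = 0.545 and rho = 0.611 (0.13 and 0.063). Inside the lower range, over 12 libraries, Sgk1 had r = 0.784 (adjusted p = 0.048) and rho = 0.769 (0.054), and r = 0.592 without the 2 libraries farthest from the median. There Plin4 had 0.486 (0.40) and Slc2a1 -0.068 (0.88). These p-values were adjusted over 56 relations, 28 in each range. None of the other 9 members passed with Mfsd2a in either range.

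**Figure D5:**
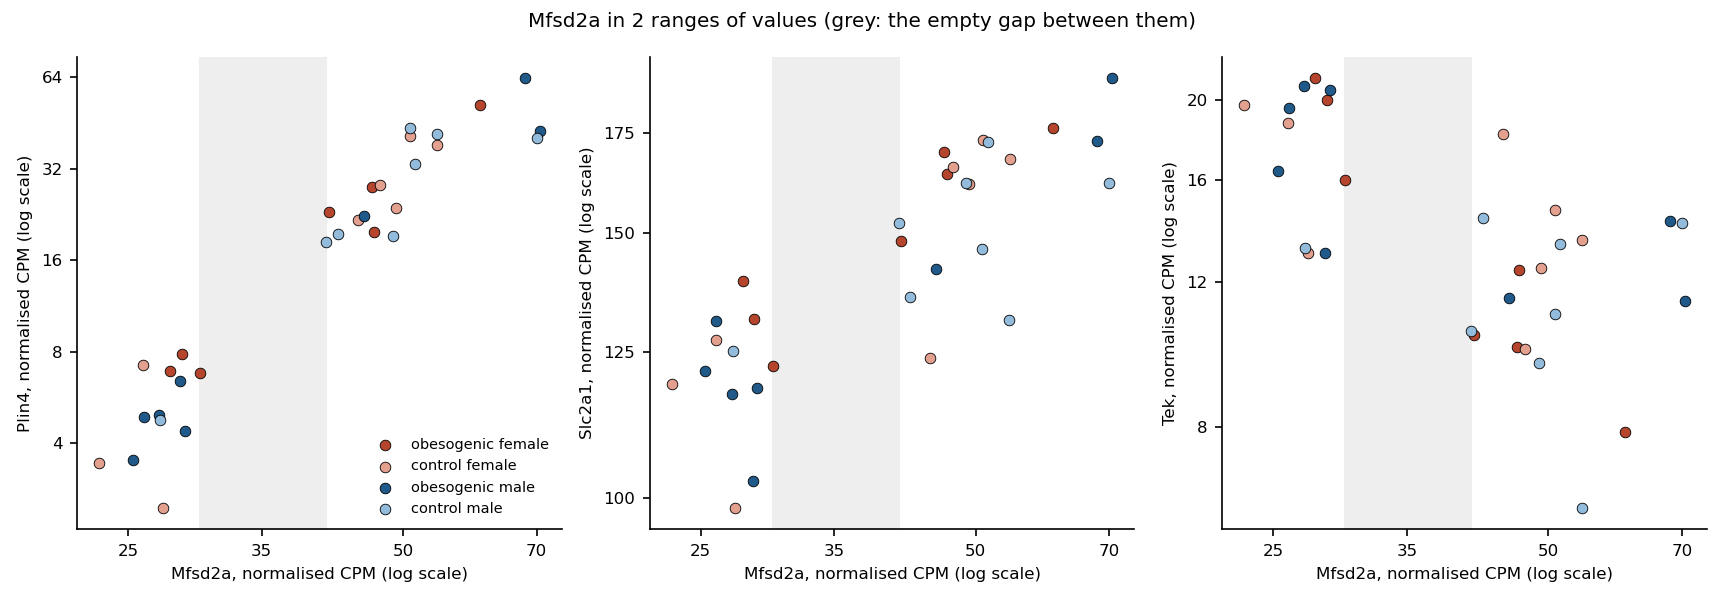
Plin4, Slc2a1 and Tek against Mfsd2a, all in normalised CPM on log scales, 1 point per library, coloured by group; grey marks the empty gap of Mfsd2a from 29.97 to 41.2 CPM. The same 12 libraries are low in Mfsd2a and in Plin4, at most 7.86 CPM, and each group has libraries on both sides.

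Slc2a1 and Tek were related to glucocorticoid-induced genes in opposite directions. With the mean of 18 glucocorticoid-induced genes, Slc2a1 had r = 0.719 and rho = 0.721 over 31 libraries (permutation adjusted p = 0.0057 and 0.0044) and r = 0.779 over 24 (0.013). Tek had r = -0.685 and rho = -0.730 (0.0057 and 0.0044) and -0.693 over 24 (0.018), and Kdr -0.511 (0.041) and -0.528 (0.033). Without the 2 libraries farthest from the median of the list these were 0.658, -0.653 and -0.476. Within the 2 ranges of Mfsd2a, of 12 and 19 libraries, none of them passed. In the lower and upper range Slc2a1 had -0.275 and 0.299, Tek -0.466 and -0.188 and Kdr -0.237 and -0.018. Of 18 such relations 0 passed (lowest permutation adjusted p = 0.64). Each range holds fewer libraries, and group means were not removed there. Whether the relations hold within a range therefore cannot be told. With the 7 covarying genes, Slc2a1 had r from -0.479 to 0.264 over 31 libraries, of which the pair with Cldn5 passed (permutation adjusted p = 0.027), and from -0.578 to 0.0049 over 24, of which those with Cdh5 and Tek did (0.035 each). The relation of Adamts1 with the glucocorticoid-induced list did not pass (r = -0.124, permutation adjusted p = 0.78).

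The 8 genes most like Adamts1 or Cldn5 by Pearson r, with group means removed, among 18742 others over the 24 libraries not in doubt and leaving out gene models without a name, are given as a description, with no p and with all 24 libraries shared between them. For Adamts1 they were Dhx32 (r = 0.743), Cntln (0.739), Armcx2 (0.687), Slc24a1 (0.661), Slc9a3 (0.659), Tmem177 (0.647), Snx33 (0.646) and Ccdc69 (0.634), none of them in the endothelial list. Over all 31 libraries these 8 had r of 0.156 to 0.537, and 95% of all genes lay below 0.364 over 24. For Cldn5 they were the monocarboxylate transporter family gene Slc16a4 (0.856), Ttyh2 (0.781), Prom1 (0.771), Slco1a4 (0.770), Pld4 (0.746), Adgra2 (0.744), Rhog (0.742) and Desi1 (0.740). Slco1a4, an organic anion transporter of brain endothelium, and Adgra2, a coreceptor of Wnt signalling at the barrier, stand in the lists above. Slc16a4 had r = -0.123 over all 31 libraries, so its place rests on leaving out the 7. For Tek, added after its pattern was seen, the first 6 were Slco1c1 (0.835), Aspa (0.834), Prom1 (0.811), Il17rd (0.802), Tie1 (0.788) and Slco1a4 (0.772), of which Slco1c1, Tie1 and Slco1a4 are genes of endothelial cells.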

How the data were processed

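Hypothalamic RNA of 31 libraries in 4 groups by maternal diet and sex was read as 1 count table. The labels' protocols give the RNAqueous kit for RNA and TruSeq for the libraries. The deposited counts are whole read pairs per gene, counted by featureCounts 1.6.2, per the file headers, over the genes of Ensembl release 94 (GRCm38), with both ends mapped, a mapping quality of at least 10 and the reverse strand. Tools named in the submitters' processing notes are TopHat2 2.0.13, FastQC, edgeR and Subread, and the build is mm10. The authors did not normalise the deposited counts. Columns of per-sample values left unused numbered 0, and 54409 of 54532 gene IDs matched a symbol. Within groups, chi-square per degree of freedom between libraries was at least 10.4, so 0 were treated as repeats.

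Library totals were 23118626 to 38547288 pairs. edgeR 4.0.16 in R 4.3.3 was run with filterByExpr (18743 genes kept), TMM factors, robust dispersions and 1 mean per group over all libraries, and p-values were adjusted over all genes with Benjamini and Hochberg's method, threshold 0.05. It was tested on simulated data. CPM per kilobase used the exon lengths deposited by the authors. Pearson and Spearman correlations used log2 CPM with a prior count of 2 after group means were removed, with two-sided permutation p-values from 100000 resamples within groups; within the ranges of Mfsd2a no group means were removed and resampling ran over the range. Other fits were DESeq2 1.42.0, limma 3.58.1 voom with sample weights, RLE factors, no filter, 1 CPM in 7 libraries, 2 surrogate variables (sva 3.50.0), only the 2 groups compared, and left-out libraries (those over 3 median absolute deviations below the median correlation, those against the sex label, and 2 with 2 numbers in the title).

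The members, gene lists, motifs and tests were chosen with earlier results of these data known. The 19 lists are endothelial, mural, fenestrated endothelial, meningeal fibroblast, choroid plexus, astrocyte, microglia, oligodendrocyte, neuron, blood and hypothalamus markers, and VEGF and angiopoietin, Wnt, junction, transporter, ADAMTS, ADAMTS substrate, immediate early and glucocorticoid-induced genes. Named genes were the 10 members, the 8 named genes most like Adamts1 and Cldn5, the 3 of smallest p in each list of related genes, the first 3 markers of a cell type as levels, and the neighbours of Adamts1 in rank. Relations within the ranges of Mfsd2a, those with depth and the set of 7 covarying genes were added after the data were seen.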

Additional observations from a re-analysis of the deposited data

Results flagged for a closer look

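Of 40 sets of values, 10 members in 4 groups, a single one held a library far from the rest: Cldn5 in control male 6, at 54.5 CPM. The gap from this library to the next of its group, relative to the range of the group, exceeded Dixon's 95% critical value. Such a flag is raised by chance in about 1 of 20 groups. The same library had 18734 genes with reads and the lowest Tek (6.38 CPM) and Flt1 (39.5 CPM) of all 31. Their part in the Cldn5 value was not tested.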

How the results depend on the processing

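Under the alternatives run, none of the 9 members other than Adamts1 passed in any contrast, and Adamts1 did not pass in the interaction or the sex contrast. The number of genes called for maternal diet, 0 in each contrast with edgeR, was 5 averaged, 6 in females, 1 in males and 6 for the interaction with DESeq2. Apart from Gm45716 and Mettl16 in females and Slc17a7 in the interaction, these were Xist and Y-linked genes. For females over males, 5 with edgeR became 15 with DESeq2, 2 with voom, 1 with no filter, 8 with 2 surrogate variables, 1 without the titles of 2 numbers, 3 without the libraries that stand apart, 13 without those against the sex label and 16 without all in doubt. Pairs of members that covaried went from 12 to 22 without the libraries in doubt and 24 with 2 surrogate variables removed.

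Some differences near 0 turned sign. For averaged diet, Cldn5 had 0.17 with voom, 0.29 with surrogate variables, 0.24 without the libraries that stand apart and 0.21 without all in doubt, and Slc2a1 0.022 without the titles of 2 numbers. In males Cldn5 had 0.19 with voom, 0.19 with surrogate variables, 0.24 and 0.18 without these libraries. In females, without the titles of 2 numbers, Cldn5 had -0.0014 and Mfsd2a 0.061; Slc2a1 had -0.024 with surrogate variables and -0.048 without all in doubt. Interactions with voom were -0.029 for Cldn5, -0.012 for Flt1, -0.13 for Kdr, -0.065 for Pecam1 and 0.083 for Cdh5. Without the libraries that stand apart they were -0.00358 for Cldn5, -0.0048 for Kdr and -0.0784 for Pecam1, without all in doubt -0.049 for Kdr and -0.11 for Pecam1, without the titles of 2 numbers -0.0064 for Flt1 and -0.023 for Pecam1, and with surrogate variables -0.032 for Flt1. Among pairs, Adamts1 with Cdh5 had 0.011 with library totals and 0.0048 as rho. Cldn5 with Flt1 had 0.517 without the libraries in doubt and 0.434 with surrogate variables removed, Slc2a1 with Abcb1a -0.16 and -0.037, and Slc2a1 with Flt1 -0.013 with surrogate variables removed. The cause was not tested.

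Levels per length moved by less than 1 SD under both alternatives. No paired analysis was possible because the labels do not name the animal or litter of a library. The precision of 7 or 8 libraries a group is given by the intervals beside the differences.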
